A study of Rattus norvegicus with 8 samples.

Results

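Tachykinins are short neuropeptides cut from larger precursor proteins and released together with fast transmitters. Tac1 encodes the precursor of substance P and neurokinin A, Tac3 encodes the precursor of neurokinin B, and Tacr1 encodes the receptor that binds substance P with the highest affinity, a G protein-coupled receptor that acts through Gq and phospholipase C. In the rat habenula, neurons of the medial nucleus make substance P and send it along the fasciculus retroflexus to the interpeduncular nucleus, and neurokinin B transcripts are also found in the medial habenula.

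These 3 genes were selected by symbol, as the tachykinin precursors and receptor in the deposited table, and each was measured by 1 probe set among 379. Habenula RNA of 8 rats (Sprague-Dawley, all male) was measured on whole-transcript arrays, 1 per rat. The stress group held rats 7, 8, 10 and 12, restrained in plastic film envelopes for 2 hours a day on 14 days. The non-stress group held rats 1, 3, 4 and 5, which stayed in their home cages with no stressor. The labels name no age, and no agent or genetic change beside the restraint. A habenula dissection holds both nuclei and can hold neighbouring tissue, so that fewer cells of a type and less RNA per cell cannot be told apart.

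The 379 probe sets were chosen by the authors on the same 8 arrays. Unadjusted p-values in the authors' deposited table reached at most 0.0499 and equalled a 2-sided unequal-variance p recomputed from the values, and the smallest difference between group means was 1.20-fold. The group difference of each tachykinin gene was therefore part of what placed it in the table, and it is given below as a description with no test. By the deposited p-value Tac1 (0.00546) and Tac3 (0.00835) lay well inside that limit. Tacr1 (0.0423) was closer to it, with 26 probe sets of the table at larger p-values. Genes just outside the limits were not analysed here. Array medians over the table lay between 8.60 and 8.77 on the log2 scale, and their number, 4 arrays per group, limits the precision of every value.

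Sequence upstream of the start site is shown for the members that RefSeq's rat promoter table holds, Tac1 and Tacr1, since a reader comparing a ligand gene and its receptor gene may want the letters of both. The 250 bases before the Tacr1 start site (GRCr8, chr4:116478367-116478616, plus strand) are given with motif letters in capitals. These are TGACG, as in the core of the cAMP response element, and further downstream TATAAA, the letters of a TATA box. TATAAA lies 50 to 45 bases before the start site, and its use as a TATA box was not tested:
Tacr1: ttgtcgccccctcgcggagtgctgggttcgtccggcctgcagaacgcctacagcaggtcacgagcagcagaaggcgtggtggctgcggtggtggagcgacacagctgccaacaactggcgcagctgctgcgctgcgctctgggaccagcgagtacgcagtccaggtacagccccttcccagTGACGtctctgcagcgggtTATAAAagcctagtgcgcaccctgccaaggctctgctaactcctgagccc

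For Tac1 the table's start site lies inside the RefSeq gene record, which begins 11 bases into the same window, so 2 stretches of 30 bases are shown in place of the whole window. The capitals mark the reverse complement of TGACG in the first stretch (GRCr8, chr4:36645365-36645394) and the E-box CACGTG in the second (chr4:36645499-36645528), both printed from the plus strand:
Tac1 TGACG core: tccctaaaattgCGTCAtttcgaacccaat
Tac1 E-box: tggggagagtgtCACGTGgctctccaggct

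The motifs searched on both strands of the 250 bases were TGACG, the palindrome TGACGTCA that contains it, the E-box CACGTG, the TATA box TATAAA, and the glucocorticoid response element's AGAACA arm. TGACG occurred in 18.2% of the 33469 promoters of the table, CACGTG in 5.59%, TATAAA in 12.9%, AGAACA in 17.5% and TGACGTCA in 1.59%. Neither TGACGTCA nor AGAACA occurred in the window of Tac1 or of Tacr1. These matches describe letters in a window and say nothing of a factor at that place.

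All 3 tachykinin genes were lower in the stressed rats, Tac1 by 1.44-fold, Tac3 by 1.36-fold and Tacr1 by 1.31-fold. In each of them the lowest non-stress rat lay above the highest stressed rat, and so the groups did not overlap. That pattern was common in the table: 316 of the 379 probe sets had groups without overlap (83.4%), 210 were lower in the stressed rats (55.4%), and 176 were both (46.4%). The rule used this contrast, so nothing is read from the counts of the 3 genes. Their median difference was -0.44 on the log2 scale, beside -0.34 over the 210 lower probe sets and -0.28 over all 379. The last value mixes lower and higher probe sets, none of them with a difference smaller than 0.26 in size. Regardless of direction, the median size over all 379 was 0.33.

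Tac1, the substance P precursor, had log2 intensities of 9.76, 9.75, 9.49 and 9.46 in non-stress rats 1, 3, 4 and 5, and of 9.07, 9.16, 9.05 and 9.10 in stressed rats 7, 8, 10 and 12. The non-stress rats formed a high pair, rats 1 and 3, and a low pair, rats 4 and 5, while the stressed rats lay close together. The group means were 9.62 ± 0.16 in non-stress rats and 9.09 ± 0.05 in stressed rats (SD, n = 4 each). The difference, stress minus non-stress, was -0.52 ± 0.09 (SE). A gap of 0.30 separated the lowest non-stress rat from the highest stressed rat, as wide as the whole range of the non-stress group (0.30). Among the 210 lower probe sets the difference of Tac1 was the 18th in size.

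Tac3, the neurokinin B precursor, had log2 intensities of 10.96, 11.12, 10.75 and 10.86 in non-stress rats 1, 3, 4 and 5. The values were 10.45, 10.54, 10.46 and 10.49 in stressed rats 7, 8, 10 and 12. Rat 3 was the highest and rat 4 the lowest of the non-stress rats, and rat 8 was the highest stressed rat, as it was for Tac1. The means were 10.93 ± 0.16 and 10.49 ± 0.04 (SD, n = 4 each), a difference of -0.44 ± 0.08 (SE), with a gap of 0.21 between the groups. Its difference was the 41st in size among the lower probe sets. The size of this difference depended on scaling more than that of the other 2 genes: quantile normalization over the 379 probe sets left -0.21 ± 0.06 (SE).

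Tacr1, the substance P receptor, was the least separated of the 3. It had log2 intensities of 9.21, 8.98, 8.66 and 8.75 in non-stress rats 1, 3, 4 and 5, and of 8.61, 8.33, 8.47 and 8.63 in stressed rats 7, 8, 10 and 12. The lowest non-stress rat, rat 4, stood only 0.033 above the highest stressed rat, rat 12, and both groups were wide. The means were 8.90 ± 0.25 and 8.51 ± 0.14 (SD, n = 4 each), a difference of -0.39 ± 0.14 (SE), the 65th in size among the lower probe sets. Without rat 1, the highest of the 8, the difference was -0.29 ± 0.12 (SE).

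**Figure D1:**
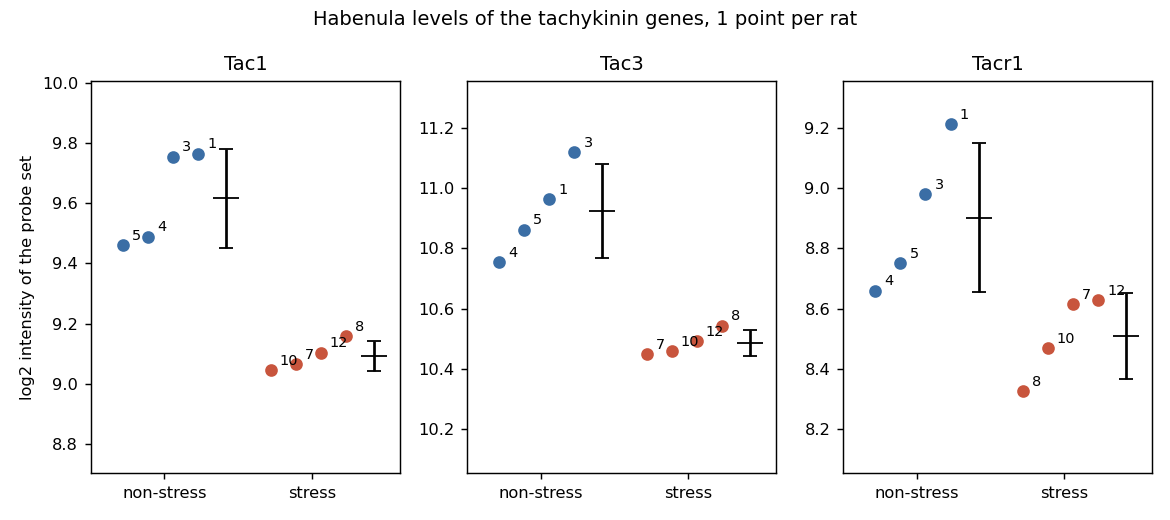
Log2 intensity of Tac1, Tac3 and Tacr1 (vertical axes, each spanning the same width on the log2 scale) in non-stress and stressed rats, with 1 point per rat labelled by its number and the black bars giving the mean ± SD of 4 rats. The groups are apart by 0.30 for Tac1, 0.21 for Tac3 and 0.033 for Tacr1, and the stressed rats lie closest together for Tac3.

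The spread among rats differed between the groups. The SD of the non-stress rats was 3.36 times that of the stressed rats for Tac1, 3.67 times for Tac3 and 1.74 times for Tacr1. A larger SD among non-stress rats was found in 162 of the 210 lower probe sets (77.1%) and in 95 of the 169 higher ones (56.2%), so the wide non-stress spread of the tachykinin genes was shared by most lower probe sets. The high pair of rats 1 and 3 above rats 4 and 5 was also shared: it occurred in 138 of the 210 lower probe sets (65.7%), all 3 tachykinin genes among them, and in 6 of the 169 higher ones (3.55%). The higher probe sets leaned the other way. Their median deviation from the group mean was -0.053 and -0.019 in rats 1 and 3, and 0.032 and 0.055 in rats 4 and 5.

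Ligand and receptor were compared within each rat as the log2 value of a ligand gene minus that of Tacr1. The level of such a difference has no meaning between probe sets, but its change between the groups shows whether the ligand differed by more than the receptor. For Tac1 minus Tacr1 the values were 0.55, 0.77, 0.83 and 0.71 in non-stress rats 1, 3, 4 and 5, and 0.45, 0.83, 0.58 and 0.48 in stressed rats 7, 8, 10 and 12. The groups overlapped, since stressed rat 8 had the highest value of all. The group difference was -0.13 ± 0.11 (SE). For Tac3 minus Tacr1 the values ran from 1.75 to 2.14 in non-stress rats and from 1.84 to 2.22 in stressed rats, again overlapping, with a difference of -0.05 ± 0.13 (SE) that turned to 0.12 ± 0.10 (SE) after quantile normalization over the table. For the mean of both precursors minus Tacr1 the difference was -0.09 ± 0.11 (SE), less than its standard error. It was larger without non-stress rat 1 (-0.16 ± 0.09) or stressed rat 8 (-0.17 ± 0.09). It was smaller without stressed rat 7 (-0.04 ± 0.13), stressed rat 12 (-0.05 ± 0.13) or non-stress rat 4 (-0.06 ± 0.13), and also after quantile normalization (-0.02 ± 0.10). A difference between ligand and receptor in their response was not resolved with 4 rats per group, which does not show that they changed alike.

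The precursor genes were set against each other in the same way. Tac1 minus Tac3 was -1.20, -1.37, -1.27 and -1.40 in non-stress rats 1, 3, 4 and 5, and -1.38, -1.39, -1.41 and -1.39 in stressed rats 7, 8, 10 and 12. In the stressed rats the value was nearly constant, with an SD of 0.013 against 0.092 in the non-stress rats. The groups overlapped and differed by -0.08 ± 0.05 (SE), Tac1 being lower by more than Tac3. Quantile normalization enlarged this to -0.27 ± 0.03 (SE), and without non-stress rat 1 it was -0.05 ± 0.04 (SE).

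**Figure D2:**
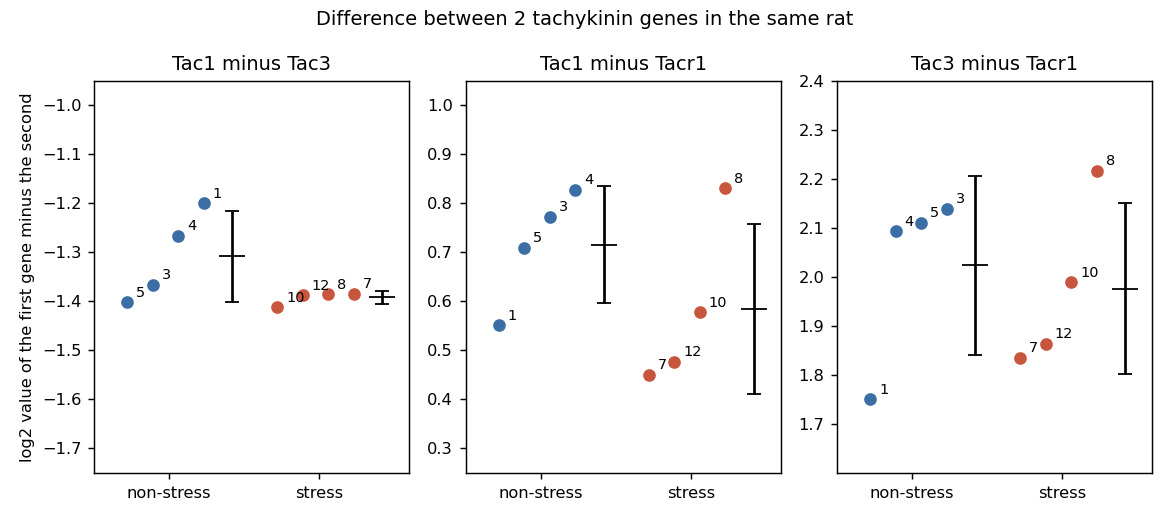
Difference between the log2 values of 2 tachykinin genes in the same rat (vertical axes, all of the same width), with 1 point per rat labelled by its number and the black bars giving the mean ± SD of 4 rats. The groups overlap in every panel, and Tac1 minus Tac3 lies between -1.41 and -1.38 in the 4 stressed rats.

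Covariation within groups was measured on the deviation of each rat from its group mean. The deviations were not scaled to the spread of each group. The SD of the non-stress rats was 3.36 (Tac1), 3.67 (Tac3) and 1.74 (Tacr1) times that of the stressed rats. The 4 non-stress rats therefore weighed most in r over the 8 rats, and r with other genes below has the same limit. The choice of the table used each gene's spread within groups but not how genes varied together. Tac1 and Tac3 lay on the same side of their group means in 8 of 8 rats, while Tacr1 shared the side of either precursor in 6 of 8. Pearson's r over the 8 rats was 0.845 for Tac1 and Tac3 (exact permutation of rats within groups, 2-sided p = 0.0712, adjusted over the 3 pairs p = 0.214), and Spearman's rho was 0.881 (exact permutation p = 0.0799, adjusted p = 0.240). For Tac1 and Tacr1 r was 0.677 (exact permutation p = 0.253, adjusted p = 0.380) and rho 0.595 (exact permutation p = 0.233, adjusted p = 0.349). For Tac3 and Tacr1 r was 0.474 (exact permutation p = 0.436, adjusted p = 0.436) and rho 0.381 (exact permutation p = 0.469, adjusted p = 0.469). None of the 3 pairs passed the threshold of 0.05, although 4 against 4 rats allow a p as small as 0.00174.

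Stressed rats 7 and 8 were those in which Tacr1 lay on the other side of the group mean than both precursors, and rat 8 had the highest Tac1 and Tac3 of its group and the lowest Tacr1. The deviations of Tac1, Tac3 and Tacr1 were 0.064, 0.058 and -0.183 in rat 8, and -0.028, -0.036 and 0.106 in rat 7. Among the stressed rats Tacr1 thus did not rise with the precursors, and its positive r over the 8 rats came from the non-stress rats. Without rat 8 r of Tac1 and Tacr1 was 0.895. Leaving out non-stress rat 4 brought r of Tac3 and Tacr1 to 0.130. Without the 2 rats farthest from the median deviation of the first-named gene, r was 0.986 for Tac1 and Tac3 (rats 1 and 5 left out, exact permutation p = 0.0417, adjusted p = 0.125), 0.449 for Tac1 and Tacr1 (rats 1 and 5, exact permutation p = 0.729) and 0.257 for Tac3 and Tacr1 (rats 3 and 4, exact permutation p = 0.854).

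**Figure D3:**
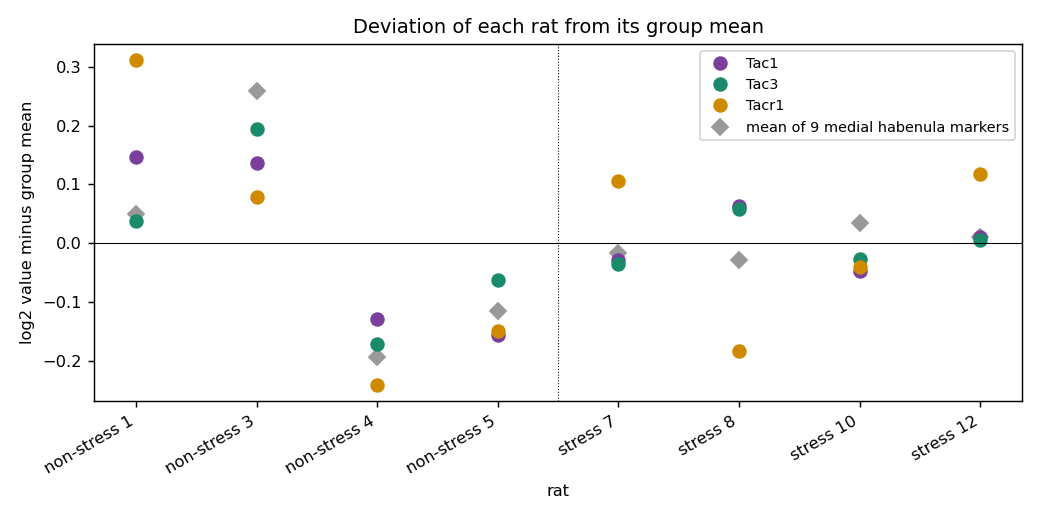
Log2 value minus group mean (vertical axis) of Tac1, Tac3 and Tacr1 in each of the 8 rats, with the mean deviation of 9 medial habenula markers as grey diamonds and a dotted line between the groups. Non-stress rats 1 and 3 are above 0 and rats 4 and 5 below 0 for all 3 genes, and in stressed rat 8 Tacr1 is low where both precursors are high.

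Positive covariation was frequent in the table. Over all 71631 pairs of probe sets the median r was 0.060, and over the 21945 pairs of probe sets lower in stress it was 0.395. Of those lower pairs, 8.80% had an r as high as that of Tac1 and Tac3 or higher, 24.7% as high as Tac1 and Tacr1, and 43.2% as high as Tac3 and Tacr1. Probe sets share the same 8 arrays, so these pairs are not independent. With each array centred on its median over the table, r was 0.738 for Tac1 and Tac3, 0.507 for Tac1 and Tacr1 and 0.182 for Tac3 and Tacr1. Probe sets higher in stress tended to deviate the other way, with a median r of -0.40 with Tac1, -0.30 with Tac3 and -0.14 with Tacr1.

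**Figure D4:**
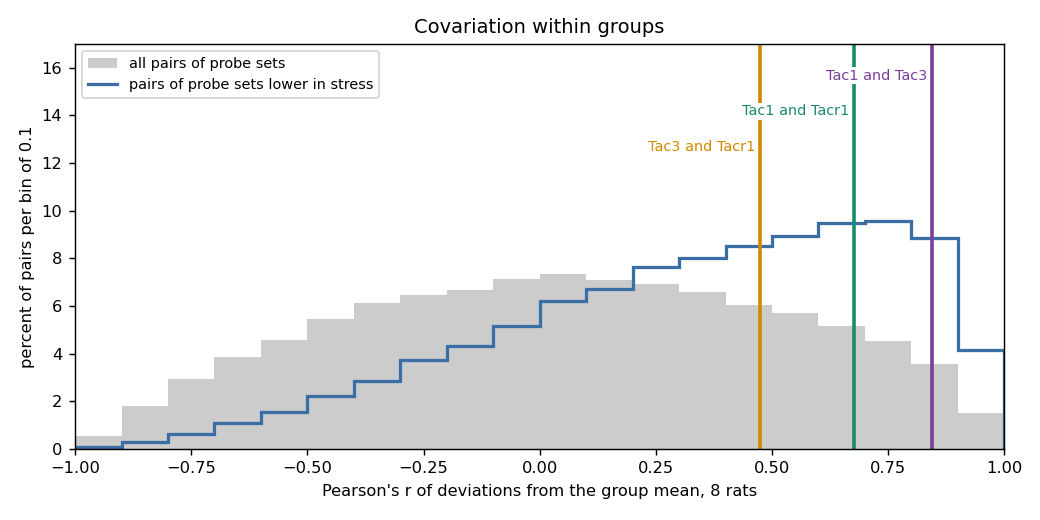
Percent of pairs of probe sets (vertical axis) in each interval of Pearson's r of the deviations from the group mean over 8 rats (horizontal axis), for all pairs in grey and for pairs lower in stress as the blue outline. Vertical lines mark the 3 tachykinin pairs at r of 0.845, 0.677 and 0.474, all inside the range that pairs of lower probe sets cover.

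The genes most like each tachykinin gene were found by r of the deviations over the 8 rats, among the 282 other probe sets with a single symbol. Tac1 was closest to Trhde, the ectoenzyme that inactivates thyrotropin-releasing hormone (r = 0.971), followed by the nucleobase transporter gene Slc43a3 (0.967), the centromere protein gene Itgb3bp (0.943), the Toll-like receptor relative Cd180 (0.942) and the LIM-domain cofactor Lmo2 (0.941). Tac3 was closest to the tyrosine phosphatase Ptprr (0.979), then to Gfra1, a receptor subunit for the growth factor GDNF (0.953), the kinase Map3k6 (0.939), the transcription factor Neurod1 (0.937) and the Rab effector Sytl2 (0.931). Tacr1 was closest to Adcyap1, the precursor of the neuropeptide PACAP (0.948), then to the transcription factor Onecut1 (0.937), Mme (0.929), the neurturin receptor subunit Gfra2 (0.897) and the ubiquitin ligase Mid1 (0.868). All 15 of these genes were lower in the stressed rats, with differences from -0.27 to -0.73. Of all probe sets 55.4% were lower, and the way these genes were picked favours lower ones: the median r with Tac1 was 0.623 over lower and -0.40 over higher probe sets. No gene stood in the first 5 of more than 1 tachykinin gene.

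Adcyap1, which followed Tacr1 most closely, had log2 intensities of 10.61, 10.56, 10.24 and 10.27 in non-stress rats 1, 3, 4 and 5, and of 9.98, 9.84, 9.95 and 10.06 in stressed rats 7, 8, 10 and 12. Its groups did not overlap, and rat 8 was again the lowest and rat 12 the highest of the stressed rats, as for Tacr1. Its difference was -0.46 ± 0.10 (SE). Its r with Tac1 was 0.794 and with Tac3 0.665.

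Of the other genes of the tachykinin system, Tac4, Tacr2 and Tacr3 were not analysed here. Of 10 genes for enzymes that make or break down neuropeptides, the table held 1. This was Mme, which encodes neprilysin, a membrane peptidase that cleaves substance P. Its log2 intensities were 9.04, 8.69, 8.51 and 8.64 in non-stress rats 1, 3, 4 and 5, and 8.36, 8.19, 8.25 and 8.51 in stressed rats 7, 8, 10 and 12. The groups touched, since stressed rat 12 (8.515) lay just above non-stress rat 4 (8.512). The means were 8.72 ± 0.23 and 8.33 ± 0.14 (SD, n = 4 each), a difference of -0.39 ± 0.13 (SE), and its r was 0.929 with Tacr1, 0.559 with Tac1 and 0.311 with Tac3. Of 22 genes of Gq signalling and receptor desensitization downstream of tachykinin receptors, the table held 0, which does not show that they were unchanged.

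Markers of the medial habenula, where Tac1 and Tac3 neurons lie, moved in the same direction. Of 16 such markers other than the tachykinin genes, 9 were in the table and all 9 were lower in the stressed rats, with groups that did not overlap, as were 46.4% of all probe sets. Non-overlap alone held for 83.4% of the table, and nothing particular to the markers is read from it. Their median difference was -0.46, and their mean log2 value lay between 10.14 and 10.59 in the non-stress rats and between 9.87 and 9.93 in the stressed rats. The nicotinic receptor subunit genes Chrnb4 (-0.62 ± 0.16, SE), Chrnb3 (-0.48 ± 0.15) and Chrna3 (-0.35 ± 0.07), and the acetylcholine and choline transporter genes Slc18a3 (-0.56 ± 0.15) and Slc5a7 (-0.54 ± 0.15), were among them. The differences of Tac1, Tac3 and Tacr1 lay within the range of these markers, which ran from -0.62 to -0.27. The table holds no difference smaller than 0.26 in size, so the -0.27 end was set by the authors' choice. Markers outside the table were not seen, and no likeness to the markers is read from this range. Within groups the mean deviation of the 9 markers had an r of 0.794 with Tac1, 0.928 with Tac3 and 0.596 with Tacr1. The median deviation of all 210 lower probe sets, these genes and markers included, had a higher r with each. It was 0.905 with Tac1, 0.949 with Tac3 and 0.681 with Tacr1, so no link particular to the markers is read from their r. A larger SD among non-stress rats was found in 9 of the 9 markers, beside 77.1% of the 210 lower probe sets. Rats 1 and 3 stood above rats 4 and 5 in 8 of 9 markers, beside 65.7% of the lower probe sets. Nothing particular to the markers is read from these counts. The part of the number of medial habenula cells per dissection in these values was not tested.

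When each of the 9 medial habenula markers was set against each precursor, Tac3 and Chrnb4 were the closest pair (r = 0.920). Chrnb4 had log2 intensities of 11.23, 11.45, 10.76 and 10.90 in non-stress rats 1, 3, 4 and 5, and of 10.49, 10.41, 10.47 and 10.49 in stressed rats 7, 8, 10 and 12. Rat 3 was its highest and rat 4 its lowest non-stress rat, as for Tac3, while stressed rat 8, the highest stressed rat for Tac3, was its lowest.

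Markers of other structures and cell types were sparse. In the lateral habenula list, 2 of 6 were in the table: the orphan receptor Gpr151 was lower (-0.42 ± 0.09, SE) and the granin-like precursor Vgf higher (0.30 ± 0.08), and r with Tac1, Tac3 and Tacr1 was 0.765, 0.918 and 0.665 for Gpr151. For Vgf the same r were -0.73, -0.57 and -0.96, so that Vgf ran most nearly opposite to Tacr1. In the hippocampal and dentate list, 2 of 8 were in the table, Neurod1 (-0.48 ± 0.13) and neurogranin, Nrgn (-0.28 ± 0.10), both lower. Their mean log2 value lay between 10.49 and 10.99 in the non-stress rats and between 10.23 and 10.35 in the stressed rats, and r with Tac1, Tac3 and Tacr1 was 0.783, 0.937 and 0.582 for Neurod1. For Nrgn it was 0.545, 0.872 and 0.025. The part of neighbouring hippocampal tissue in the tachykinin values was not tested. Microglial markers in the table were Tmem119 (0.37 ± 0.11) and Gpr34 (-0.58 ± 0.09), 2 of 6. Their r with Tac1, Tac3 and Tacr1 was 0.327, 0.611 and 0.439 for Tmem119, and 0.404, 0.286 and -0.235 for Gpr34. The endothelial transporters Slco1a4 (-0.32 ± 0.07) and Slco1c1 (-0.29 ± 0.06), 2 of 6, had an r between 0.034 and 0.242 with both precursors. With Tacr1 their r was negative, -0.474 for Slco1a4 and -0.575 for Slco1c1. The meningeal transporter Slc6a13 (-0.31 ± 0.12), 1 of 4, had an r of -0.61 with Tac1, -0.49 with Tac3 and -0.66 with Tacr1. Lists for thalamus, choroid plexus, ependyma, pineal gland, oligodendrocytes and their precursors, astrocytes, mural cells and blood had 0 genes in the table.

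**Figure D5:**
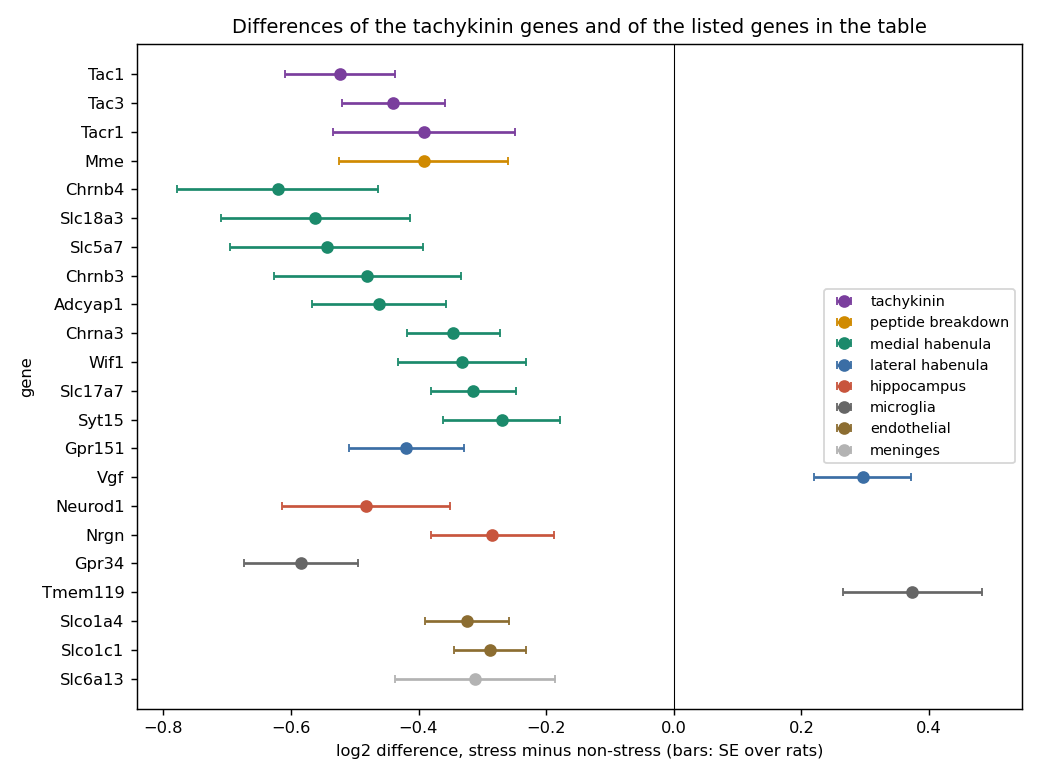
Log2 difference, stress minus non-stress (horizontal axis, bars giving the SE over 4 and 4 rats), of the tachykinin genes and of every listed gene that the table holds, coloured by list. The 3 tachykinin genes lie between -0.52 and -0.39, inside the range of the 9 medial habenula markers, and Vgf and Tmem119 are the genes above 0. Every gene shown passed the authors' choice, which left no difference smaller than 0.26 in size.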

How the data were processed

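Total RNA of 8 habenulae was amplified, labelled with biotin and hybridized to Affymetrix whole-transcript arrays, per the labels' protocols. The authors deposited log2 intensities per probe set. The labels name no scanner, background correction, summarization, normalization or batch, so batches could not be checked. The annotated table and GEO's value table were identical over 379 probe sets. The deposited fold column is a log2 difference of group means and the deposited p-value an unequal-variance p, both recomputed from the 8 columns. Of the probe sets 283 had 1 gene symbol, 5 several and 91 none. The 3 gene IDs matched RefSeq's rat table.

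Groups were taken from the sample titles and compared unpaired. Differences are means over rats with the SE from both groups' spread. Correlations used deviations from group means and all 576 orders of rats within groups, with Benjamini-Hochberg adjustment over the 3 pairs at a threshold of 0.05. limma 3.58.1 in R 4.3.3 gave an alternative SE. Python 3.11.15 with scipy 1.17.1 was used otherwise, and the scripts were tested on simulated data. The genes named are the 3 members, the 5 most alike to each, and every gene of the fixed lists in the table. Mme and Adcyap1 are given by rat because of their place in those lists, and Chrnb4 was chosen after its values were seen. The members and lists were chosen with earlier results of these data known.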

Additional observations from a re-analysis of the deposited data

Results flagged for a closer look

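Among 14 groups of 4 rats examined for a single rat apart from the other 3, chance gives about 1 in 20, and 3 were found, all in differences between tachykinin genes. Tac3 minus Tacr1 was 1.75 in non-stress rat 1, against 2.09 to 2.14 in the other non-stress rats. The mean of Tac1 and Tac3 minus Tacr1 was 1.15 in the same rat, against 1.41 to 1.46, and shares its values with the first. Tac1 minus Tac3 was -1.41 in stressed rat 10, against -1.39 to -1.38 in the other stressed rats, a small gap in a narrow group. No level of Tac1, Tac3 or Tacr1 had such a rat.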

How the results depend on the processing

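No paired analysis was possible because no number in the titles occurs in both groups. All 3 tachykinin genes stayed lower in stress, with groups that did not overlap, under both scalings. The authors chose the table on this same contrast. Leaving out 1 rat cannot make separate groups overlap or reverse their direction, so it tests neither, and only the size of the difference is given for it. Without 1 rat the difference ran from -0.57 to -0.47 for Tac1, from -0.50 to -0.37 for Tac3 and from -0.47 to -0.29 for Tacr1, and that of ligand minus receptor from -0.17 to -0.04. Quantile normalization over the 379 chosen probe sets, which moved their median difference from -0.28 to -0.17, moved Tac3 to -0.21, and the cause was not tested. Under the same scaling the correlation of Tac1 and Tac3 passed (r = 0.904, exact permutation, adjusted p = 0.0156). Under the other 12 alternatives it did not, with r from 0.738 to 0.986. Among them, GEO's values were identical to the main ones and so add nothing. The r of 0.986 came from 6 rats, where no p below 0.0208 was possible by exact permutation before adjustment, so little is read from its not passing. The correlations of Tacr1 with Tac1 and with Tac3 passed under none of 13 alternatives each, with r from 0.437 to 0.895 and from 0.130 to 0.657. For ligand minus receptor the median over rats gave -0.21 and quantile normalization -0.02, beside -0.09. Computed by pair, a choice made after seeing the data, quantile normalization turned Tac3 minus Tacr1 from -0.05 to 0.12 and moved Tac1 minus Tac3 from -0.08 to -0.27, and the cause was not tested. limma's SE was 0.088 for Tac1, 0.086 for Tac3 and 0.111 for Tacr1. The table holds no probe set outside the authors' limits, so these sizes are inflated by the choice.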
